A study of Homo sapiens with 8 samples.

Results

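The difference that 2-deoxy-D-glucose (2DG) made in HT1080 cells already carrying phenformin was measured as the log2 level on the array of cells given 2DG with phenformin minus that on the array of cells given phenformin alone. It was taken over every probe set that reached a log2 level of 6 on at least 1 of the 8 arrays of the series, which left 15503 of 54613 probe sets that were not array controls. These stood for 8429 genes, each read from its brightest probe set. A log2 difference of 1 is a 2-fold difference, and that was the threshold used throughout.

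HT1080 is an established human fibrosarcoma line. In the series its cells were grown for 18 h in normal medium with no compound, 100 µM phenformin, 10 µM versipelostatin or 10 µM compound C, each without and with 10 mM 2DG, and 1 array was hybridised for each of the 8 conditions. Versipelostatin and compound C (dorsomorphin) are, like phenformin, compounds that the study treats as blockers of the unfolded protein response. All cultures were of 1 unmodified line, each compound was added just before 2DG, and with 1 array a condition no difference given here has a replicate check or a test.

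2DG is a glucose analogue that is phosphorylated but cannot pass down glycolysis, and it also disturbs the building of N-linked sugar chains, so that glycoproteins misfold in the endoplasmic reticulum (ER). The ER answers through 3 sensors, PERK (EIF2AK3), IRE1 (ERN1) and ATF6: ATF6 and the IRE1 product XBP1 raise chaperone genes, while PERK phosphorylates the translation factor eIF2 alpha (EIF2S1) and so favours translation of ATF4, which drives amino acid supply genes and DDIT3 (CHOP). Phenformin is a biguanide that inhibits complex I of the mitochondrial respiratory chain, so cells given both agents are limited in glycolysis and in respiration. The comparison asks what remains of the response to 2DG once phenformin is present.

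The promoters below are shown as examples of 2 gene groups described first, the ER chaperones and the ATF4 targets, each with a known response element. The first pair belongs to HSPA5 (GRP78, the main Hsp70 chaperone of the ER, chr9:125241294-125241593, minus strand) and HSP90B1 (GRP94, the ER Hsp90, chr12:103930160-103930459, plus strand). Capitals mark the ER stress element, searched as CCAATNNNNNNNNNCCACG on both strands, which ATF6 is known to bind together with NF-Y. The second pair belongs to ASNS (asparagine synthetase, chr7:97872359-97872658, minus strand) and ATF3 (a stress-inducible bZIP factor, chr1:212565157-212565456, plus strand). Capitals there mark the C/EBP-ATF response element, searched as TGATGNAA on both strands. Each sequence runs 5′ to 3′ along the gene and spans its RefSeq start site in GRCh38.p14.
HSPA5: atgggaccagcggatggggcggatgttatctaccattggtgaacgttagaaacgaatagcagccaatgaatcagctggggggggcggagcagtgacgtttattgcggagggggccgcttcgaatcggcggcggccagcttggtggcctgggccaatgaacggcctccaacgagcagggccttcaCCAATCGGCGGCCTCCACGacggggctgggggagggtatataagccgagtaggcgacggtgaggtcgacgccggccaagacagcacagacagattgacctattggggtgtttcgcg
HSP90B1: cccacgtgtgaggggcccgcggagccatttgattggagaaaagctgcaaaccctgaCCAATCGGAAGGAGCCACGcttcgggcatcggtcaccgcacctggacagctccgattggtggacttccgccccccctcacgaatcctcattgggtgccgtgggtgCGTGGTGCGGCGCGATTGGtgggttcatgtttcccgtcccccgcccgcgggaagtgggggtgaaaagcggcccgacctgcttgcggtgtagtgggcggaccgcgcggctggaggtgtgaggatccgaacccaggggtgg
ASNS: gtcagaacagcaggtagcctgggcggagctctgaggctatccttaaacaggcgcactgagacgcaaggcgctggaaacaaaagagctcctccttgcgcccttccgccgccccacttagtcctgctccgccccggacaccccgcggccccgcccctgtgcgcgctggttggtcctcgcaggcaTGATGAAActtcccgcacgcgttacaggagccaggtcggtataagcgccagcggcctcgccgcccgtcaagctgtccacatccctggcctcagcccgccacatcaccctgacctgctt
ATF3: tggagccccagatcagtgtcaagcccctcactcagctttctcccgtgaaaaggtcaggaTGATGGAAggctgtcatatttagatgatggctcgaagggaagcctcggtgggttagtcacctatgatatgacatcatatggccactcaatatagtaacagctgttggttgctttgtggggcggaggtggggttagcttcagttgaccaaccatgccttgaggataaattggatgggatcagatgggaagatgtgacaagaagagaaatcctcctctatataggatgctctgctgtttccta

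The ER stress element was present in 22 of 27305 RefSeq promoters of this length (0.0806%) and in 5 of the 22 measured ER chaperone genes that had a promoter sequence, namely HSPA5, HSP90B1, CALR, CANX and CRELD2. The C/EBP-ATF element was present in 1003 of the 27305 (3.67%) and in 5 of 28 ATF4 target genes with a promoter, namely ASNS, ATF3, CHAC1, SLC3A2 and SLC7A1. Among 7077 measured genes with a promoter the ER stress element was present in 10 (0.141%) and the C/EBP-ATF element in 129 (1.82%). Of 14 measured cytosolic tRNA synthetase genes with a promoter 5 (35.7%) held the C/EBP-ATF element. A match describes the letters in this window only.

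Of the 15503 probe sets, 1258 were at least 2-fold higher with 2DG under phenformin (8.11%) and 2746 at least 2-fold lower (17.7%). Of the 1258 higher, 662 also reached log2 6 on the phenformin array, and 76 reached it on the 2DG with phenformin array alone. Of the 2746 lower, 937 also reached it on the 2DG with phenformin array, and 65 on the phenformin array alone. Without a compound 2DG gave 494 higher (3.19%) and 392 lower (2.53%), on the control and 2DG arrays. The median difference was -0.15 under phenformin and 0.01 without a compound, and the SD across probe sets was 1.004 and 0.52. Counted as genes, 471 of 8429 (5.59%) were at least 2-fold higher under phenformin and 1594 (18.9%) at least 2-fold lower. Without a compound the shares of genes were 3.06% and 1.9%. These shares are the background for the gene groups that follow. The difference under phenformin exceeded that without a compound by 2-fold or more for 653 genes (7.75%) and lay below it by as much for 1952 (23.2%). The RNA was bulk RNA, so fewer cells carrying a transcript and less of it in each cell cannot be told apart.

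The scale of the arrays bears on the split. Of the called probe sets 31.4% were higher with the values as deposited, against 45.4% with each array centred on its median, 44.8% after quantile normalization, 13.9% with the arrays scaled on the poly-A control transcripts and 12.5% with them scaled on the hybridization controls. Centring shifted every difference by 0.21, and scaling on the spiked controls shifted it by -0.39 (poly-A) or -0.43 (hybridization), so values nearer to 0 than these have no settled sign. The spiked poly-A transcripts themselves read 0.46 higher on the 2DG with phenformin array than on the phenformin array, and 11274 probe sets reached log2 6 on the former against 12459 on the latter. The part of either in the counts was not tested. On both arrays 7 of 10 mesenchymal marker genes, such as VIM and SPARC, reached log2 6, while none of 6 epithelial, 4 blood and 5 endothelial markers with a probe set did.

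Taken over all probe sets, the differences that 2DG made under phenformin did not follow those it made alone. Across the 15503 probe sets the 2 sets of differences, which share no array, had a Pearson r of -0.01 and a Spearman rho of -0.03. Of the 494 probe sets at least 2-fold higher with 2DG alone, 83 (16.8%) were also higher under phenformin, which is 6.60% of the 1258, and 123 (24.9%) were lower. Over all 15503 probe sets 8.11% were higher and 17.7% lower under phenformin. Of the 392 lower with 2DG alone, 60 (15.3%) were lower under phenformin, which is 2.18% of the 2746, and 33 (8.42%) were higher. By contrast the differences made by 2DG under versipelostatin, again on other arrays, went with those under phenformin at r = 0.73 (rho = 0.67), and those under compound C at r = 0.48 (rho = 0.45). These are descriptions over probe sets that share arrays and in part genes, not tests.

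ER chaperones and folding enzymes were in part higher with 2DG under phenformin too. Of 24 measured members 8 were at least 2-fold higher under phenformin and 0 lower, against 16 and 0 without a compound, and each of the 8 was also at least 2-fold higher without a compound. HSPA5 was at 11.19 in control, 12.89 with 2DG, 11.28 with phenformin and 13.41 with 2DG and phenformin. The highest of the 4 values was on the array with both agents, and the 2DG difference was 2.13 under phenformin and 1.71 without it. A second, dimmer HSPA5 probe set gave 1.08 and 1.83, so the order of the 2 differences depended on the probe set. The study itself reports that phenformin lowered the activity of a GRP78 promoter reporter in cells given 2DG, a measure other than the mRNA level read here.

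HSP90B1 stood at 10.39, 12.33, 10.32 and 12.09 on the same 4 arrays, a difference of 1.77 under phenformin and 1.94 without. SDF2L1, a partner of the ER Hsp70 system, stood at 7.74, 9.54, 6.40 and 8.97, and DNAJB11, an ER Hsp40, at 9.65, 11.53, 9.03 and 10.83. For both the level with phenformin alone lay below control and the level with both agents below that with 2DG, so that differences of 2.57 and 1.80 came from a lower start.

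MANF (1.64), DNAJB9 (1.60), DNAJC3 (1.37) and ERP44 (1.10) were the other members past 2-fold under phenformin. The disulfide isomerase genes PDIA3, PDIA4 and P4HB and the lectin chaperone genes CALR and CANX were not among them. PDIA4 differed by 0.28 under phenformin and 1.95 without it, P4HB by 0.06 and 1.38, PDIA3 by 0.58 and 1.64, and HYOU1, the ER Hsp110, by 0.81 and 2.11. The group's median was 0.73 under phenformin (0.30 to 0.94 under the scalings tried, and 0.45 without probe sets that may match several transcripts) against -0.23 over all genes, and 1.37 without a compound. The 5 members with the ER stress element printed above had a median of 0.87 and ranged from 0.28 to 2.13, and the 17 without it had a median of 0.73.

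**Figure D1:**
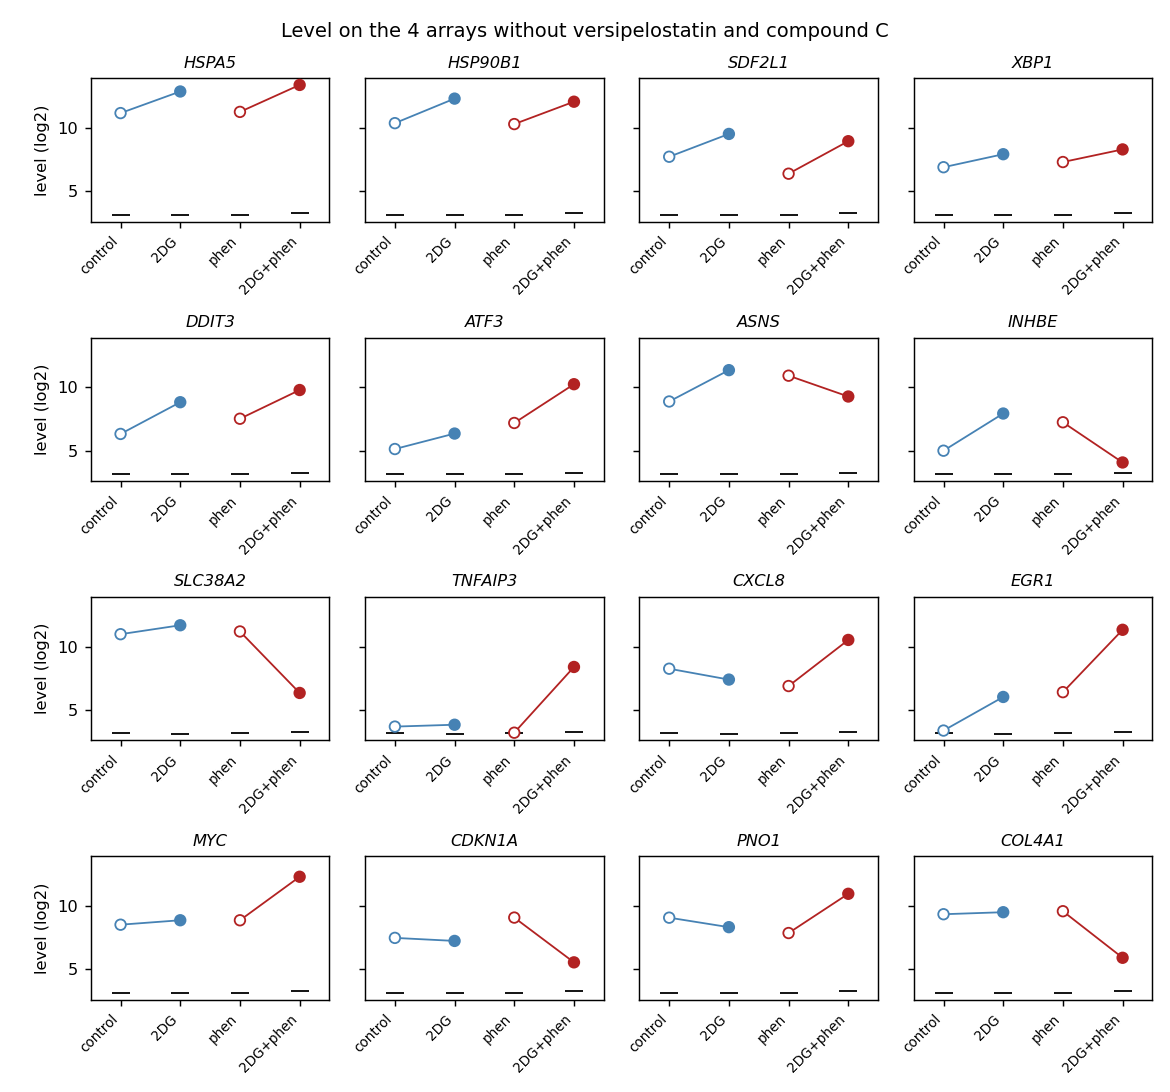
Log2 level of 16 genes (1 panel each) on the control, 2DG, phenformin (phen) and 2DG with phenformin (2DG+phen) arrays, 1 array a point, with lines joining the arrays that differ by 2DG (blue, no compound; red, phenformin) and short black bars at the median of each array over all probe sets. HSPA5 and HSP90B1 were higher with 2DG in both settings, while ASNS and INHBE were higher with 2DG alone and lower with 2DG under phenformin.

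Other ER groups had medians nearer to 0. Of 25 measured genes of ER-associated degradation and protein translocation, 1 was at least 2-fold higher under phenformin and 3 lower, with a median of 0.09 against 0.75 without a compound, and the 0.09 turns negative when the arrays are scaled on the spiked controls. HERPUD1, a scaffold of the degradation complex, stood at 9.16, 10.92, 9.54 and 11.26 on the 4 arrays, a difference of 1.72 under phenformin. EDEM1 and EDEM3, which trim mannose from misfolded glycoproteins, differed by -1.12 and -1.39. SEL1L, the partner of the ER ubiquitin ligase, differed by -0.13 and by 1.58 without a compound.

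Among 13 genes of UPR sensors and transcription factors 1 was at least 2-fold higher under phenformin and 4 were lower. EIF2AK3 (PERK) was at 6.37, 6.86, 6.50 and 4.83, lowest with both agents, a 2DG difference of -1.67 under phenformin. ERN1 (IRE1) was at 4.72, 6.29, 5.14 and 5.07, so its difference of 1.57 without a compound became -0.07. XBP1 was at 6.91, 7.94, 7.32 and 8.32 and differed by 0.998, just under the threshold, with phenformin and by 1.03 without.

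ATF6 differed by -0.83 and ATF4 mRNA by -0.03 under phenformin. ATF4 levels on the 4 arrays were 11.48, 12.24, 11.87 and 11.84, and an mRNA level says nothing of the translation by which ATF4 is mainly controlled. PPP1R15A (GADD34), which returns the phosphatase to eIF2 alpha, was the 1 member past 2-fold upward, at 7.13, 7.61, 7.59 and 10.14. EIF2S1 differed by 0.91 at its brightest probe set and between -0.61 and 0.91 over its 3 probe sets.

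Among ATF4 and CHOP targets more were lower than higher with 2DG under phenformin, where none had been lower with 2DG alone. Of 36 measured members 21 were at least 2-fold higher with 2DG alone and 0 lower. Under phenformin 7 were higher and 16 lower, with a median of -0.95 (-1.38 to -0.74 under the scalings tried) against 1.17 without a compound. Phenformin alone lay above control by a median of 0.55 over the group. Of the 21, 6 were also higher under phenformin and 11 were lower. With each gene read from the median of its probe sets, or without probe sets that may match several transcripts, the group's median was -0.32.

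The lower members included some that serve amino acid supply. ASNS was at 8.89, 11.37, 10.93 and 9.28 on the 4 arrays. It was higher with either agent than in control, and with both it was near the control level, a 2DG difference of -1.65 under phenformin. SLC7A11, the cystine transporter subunit, was at 7.95, 9.88, 8.92 and 6.57, and PCK2, the mitochondrial PEP carboxykinase, at 6.13, 7.89, 8.08 and 6.02. The 3 SLC7A11 probe sets ranged from -2.57 to 0.25 under phenformin.

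SLC38A2, a transporter of small neutral amino acids, had the lowest difference of all 8429 genes, -4.86. Its level was 11.00 in control, 11.70 with 2DG, 11.21 with phenformin and 6.35 with both, and the highest of its 3 probe sets gave -3.17. PSAT1, CBS and CTH of serine and cysteine synthesis differed by -1.78, -1.46 and -1.22. None of 17 cytosolic tRNA synthetases was at least 2-fold higher, and 1, WARS1, was lower, at 8.57, 10.15, 9.04 and 7.92.

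Other lower members act in signalling. INHBE, an activin subunit gene, was at 5.00, 7.94, 7.25 and 4.07, a difference of -3.18 under phenformin and 2.94 without it. DDIT4 (REDD1), which restrains mTORC1, was at 6.45, 8.65, 8.26 and 5.54, and TRIB3, a pseudokinase that feeds back on ATF4, at 8.71, 10.82, 9.50 and 8.44. In each case both agents together gave a lower level than either alone. The same was read for VEGFA at its brightest probe set (-2.85), but the median over its 4 probe sets was 0.061.

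The 7 members at least 2-fold higher under phenformin were mostly transcription factors of the stress response and their partners. ATF3 was at 5.13, 6.36, 7.19 and 10.26, a difference of 3.06, and DDIT3 (CHOP) at 6.33, 8.83, 7.53 and 9.80, a difference of 2.27. CEBPB (1.77) and CEBPG (1.52), bZIP partners of ATF4, the GADD34 gene described above (2.55), SLC3A2, the heavy chain of amino acid transporters (2.47), and SESN2, a stress-induced inhibitor of mTORC1 (1.503), completed the set. Of the genes whose promoters are printed above with the C/EBP-ATF element, ASNS was thus lower and ATF3 higher. The 5 members with that element ranged from -1.65 to 3.06.

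**Figure D2:**
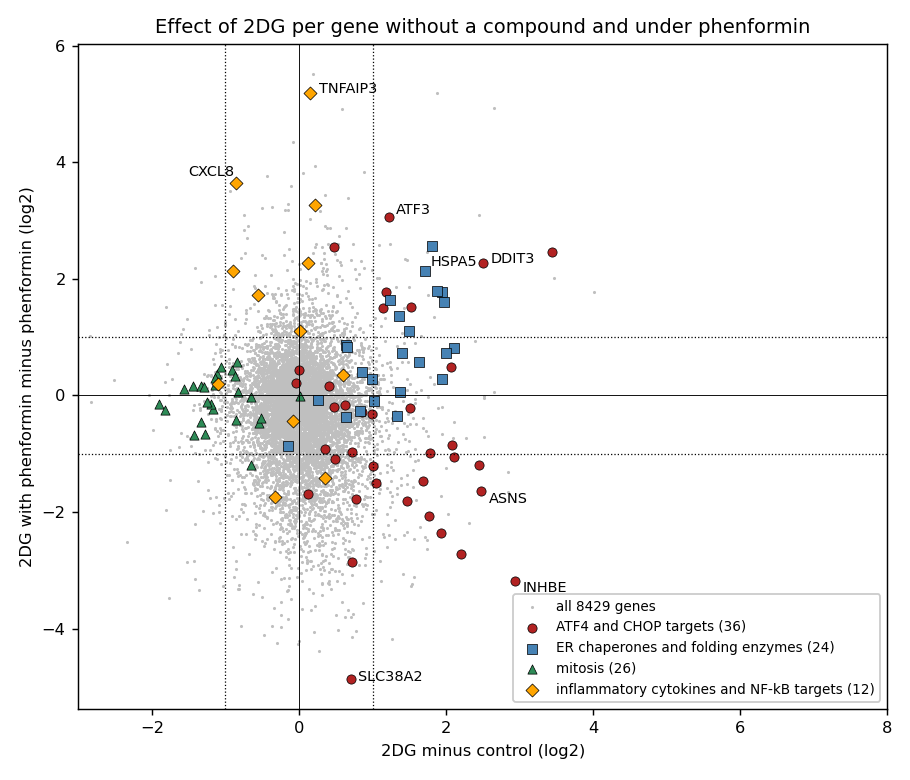
Each point is 1 of 8429 genes, with the log2 difference made by 2DG without a compound on the x axis and under phenformin on the y axis, 1 array a condition, and dotted lines at 2-fold. ER chaperones (blue squares) lay mostly in the upper right, ATF4 and CHOP targets (red circles) mostly in the lower right, mitosis genes (green triangles) to the left of 0 near the x axis, and several inflammatory genes (orange diamonds) near the y axis above 2-fold.

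Cell cycle genes differed less with 2DG under phenformin than with 2DG alone. Of 26 mitosis genes 16 were at least 2-fold lower with 2DG alone and 1 under phenformin (TTK, a spindle checkpoint kinase, -1.19), with medians of -1.14 and -0.01. The median under phenformin was 0.19 with centred arrays and -0.40 when scaled on poly-A controls. KIF20A, a mitotic kinesin, was at 9.004, 7.11, 8.14 and 7.99 on the 4 arrays, and PLK1, a mitotic kinase, at 6.05, 4.72, 5.01 and 5.17. Phenformin alone thus lay below control for both, and the group's median difference between phenformin and control was -0.40.

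Of 29 DNA replication genes 9 were at least 2-fold lower with 2DG alone and 2 under phenformin, the S-phase cyclin CCNE2 (-1.96) and the sliding clamp PCNA (-1.61). Their median was 0.25 under phenformin, which becomes -0.14 with scaling on poly-A controls and -0.18 on hybridization controls, and -0.81 without a compound. RRM2, the ribonucleotide reductase subunit, was at 11.10, 9.38, 10.47 and 10.75. The median difference between phenformin and control over the group was -0.61.

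Inflammatory cytokines and NF-kB targets had a median of 1.41 under phenformin over 12 measured genes, against -0.03 without a compound. A gene counted as measured if any of the 8 arrays reached log2 6. Genes high only with 2DG and a compound thus entered, TNFAIP3 among them. Such entries favour a high median, which was 0.23 with no limit. Of the 12, 7 were at least 2-fold higher and 2 lower, and none was higher with 2DG alone. TNFAIP3 (A20), a feedback inhibitor of NF-kB, was at 3.69, 3.84, 3.21 and 8.41, where 3.21 is close to the array median of 3.16 that was taken as background. CXCL8 (interleukin 8) was at 8.27, 7.41, 6.90 and 10.54, so phenformin alone lay below control and both agents above it.

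NFKBIA, which encodes IkB alpha, differed by 2.27, the chemokine gene CXCL3 by 3.26 and the NF-kB cofactor NFKBIZ by 1.72. The chemokine gene CCL20 was not above background with phenformin alone, and its difference was at least 1.77. IL1A and IL1B, the interleukin 1 genes, were the lower members (-1.42 and -1.74), and IL6 differed by 0.36. The group's median was 0.36 without probe sets that may match several transcripts and 0.23 with no limit on expression, in both cases below that of ribosome biogenesis genes (0.65 and 0.66).

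Immediate early genes, which respond to growth factors and stress, had 7 of 20 members at least 2-fold higher and 3 lower, with a median of 0.68 against 0.15 without a compound. The former was 0.32 with no limit on expression. EGR1 was at 3.38, 6.04, 6.42 and 11.34, a difference of 4.93, and it was higher with each agent than without. MYC was at 8.53, 8.89, 8.88 and 12.32, so neither agent alone took it far from control while both together did. CCN2, a matricellular protein gene, was at 7.96, 7.52, 7.90 and 11.67 in the same way. KLF2 (-2.54), FOSL2 (-2.86) and JUND (-1.36) were lower, and the FOSL2 probe sets ranged from -4.02 to 0.99.

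Ribosome biogenesis genes, many of them known MYC targets, had 7 of 23 members at least 2-fold higher and 0 lower, with a median of 0.66 (0.22 to 0.86 under the scalings tried) against -0.09. Phenformin alone differed from control by a median of -0.56 over the 23. PNO1, an assembly factor of the small subunit, was at 9.09, 8.34, 7.88 and 10.98. BYSL, also of the small subunit, was at 8.25, 8.09, 7.66 and 9.81, and POLR1C, a subunit of RNA polymerases I and III, at 8.24, 8.47, 7.22 and 9.21. For the 3 the phenformin array was the lowest of the 4 and the array with both agents the highest. Cytosolic ribosomal protein genes did not share this: 0 of 51 passed 2-fold either way, and they ranged from -0.15 to 0.16.

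Targets of p53 lay on both sides, with 6 of 18 at least 2-fold higher and 8 lower. Their median of -0.76 turned to 0.60 when a gene was read as the median of its probe sets. It was 0.86 with the next brightest probe set, over only those members that have several. Phenformin alone differed from control by a median of 0.78 over these genes. CDKN1A (p21), the cyclin-dependent kinase inhibitor, was at 7.49, 7.25, 9.10 and 5.56, higher with phenformin alone and lowest with both, a difference of -3.54. TP53INP1 was at 5.52, 6.78, 6.78 and 2.59, and since the last value is not above background its difference was -3.50 or lower. PMAIP1 (NOXA), a BH3-only death gene, was at 8.65, 9.04, 8.80 and 11.39, and GADD45A, a growth arrest gene, at 9.59, 9.92, 10.93 and 13.01, both highest with the 2 agents together.

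Of 22 matrix, protease and integrin genes 9 were at least 2-fold lower and 1 higher under phenformin, with a median of -0.76 against 0.20 without a compound. Phenformin alone differed from control by a median of 0.51 over the group. COL4A1, a chain of basement membrane collagen, was at 9.36, 9.52, 9.60 and 5.92, and ITGA2, a collagen receptor subunit, at 9.37, 9.69, 9.97 and 7.13. FN1 (fibronectin) was at 7.16, 7.52, 10.70 and 8.61, so its lower reading under phenformin came down from a level well above control. The collagenase MMP1 was the 1 higher member, at 7.01, 9.46, 6.70 and 9.80.

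Of 19 cholesterol and fatty acid synthesis genes 8 were at least 2-fold lower and 0 higher, with a median of -0.94 against -0.48 without a compound. The former was -0.49 with the median over the probe sets of each gene and -1.67 without probe sets that may match several transcripts. It was -0.29 with the next brightest probe set, over only those members that have several. SQLE (squalene epoxidase) was at 9.005, 8.53, 9.81 and 7.79, and INSIG1, which retains the SREBP complex in the ER, at 8.70, 7.40, 9.88 and 7.89. Both were higher with phenformin alone than in control. ELOVL6, a fatty acid elongase, was at 7.70, 7.99, 7.73 and 4.86. HMGCS1, an early enzyme of the pathway, had the highest reading of the group, 0.92, with another probe set at -1.80.

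Genes of nutrient signalling differed in both directions. Of 20 AMPK and mTOR pathway genes 6 were at least 2-fold lower and 2 higher, where 18.9% and 5.59% of all genes were. Their median was -0.09, against -0.23 over all genes. RICTOR, the defining subunit of mTORC2, was at 6.03, 6.66, 6.15 and 3.67. STK11 (LKB1), the kinase upstream of AMPK, was at 6.50, 6.50, 5.82 and 4.73, while PRKAA1, the AMPK alpha 1 subunit gene, was at 5.11, 5.33, 5.62 and 6.90.

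EIF4EBP1, a brake on cap-dependent translation, differed by -0.18. Of 8 insulin signalling and FOXO genes 4 were lower and 1 higher, with a median of -1.09. It became 0.013 with the next brightest probe set, over only those members that have several. Phenformin alone differed from control by a median of 0.89 over the 8. IRS1, the insulin receptor substrate, was at 6.68, 7.60, 7.74 and 5.02, and the transcriptional repressor BCL6 at 6.22, 6.95, 7.43 and 10.03.

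The gene groups of the organelle that phenformin acts on, and of the pathway that 2DG blocks, showed few differences. None of 33 nuclear-coded complex I subunit genes passed 2-fold in either direction, and they ranged from -0.48 to 0.44. None of 13 mitochondrial chaperones and proteases did, nor any of 13 cytosolic heat shock genes. ND6, a complex I subunit gene of mitochondrial DNA that is on none of these lists, differed by 1.02 under phenformin and by -2.84 without a compound. Of 20 genes of glycolysis and glucose uptake 1 was higher, PFKFB3 (1.30), a regulator of phosphofructokinase, and 1 lower, the glucose transporter gene SLC2A3 (-2.23). SLC2A3 was read at 1.52 by another of its 3 probe sets.

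**Figure D3:**
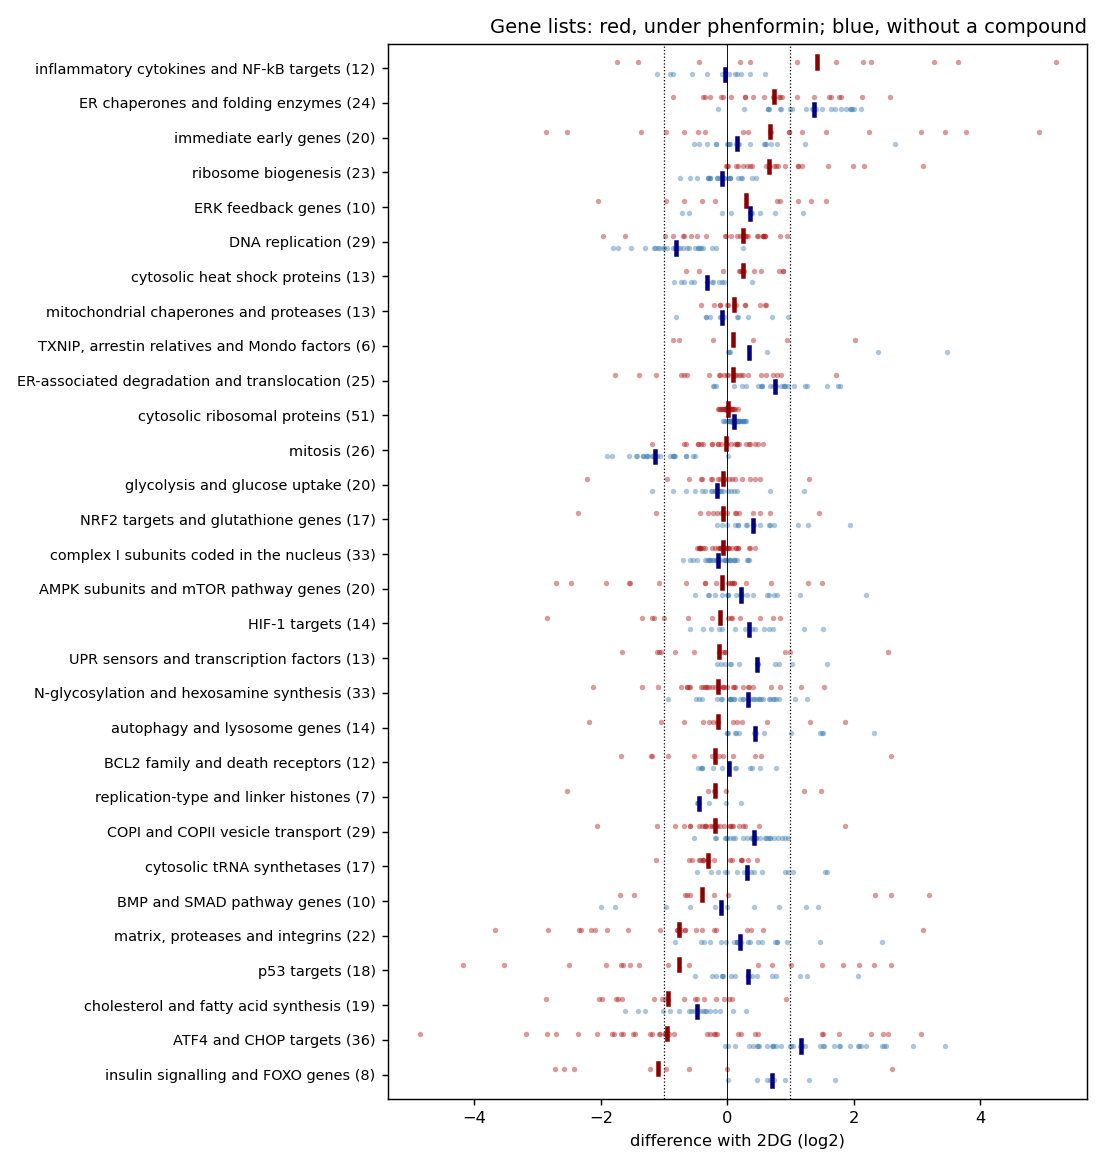
Log2 differences made by 2DG for the measured genes (number in parentheses) of 30 gene lists, under phenformin (red) and without a compound (blue), with 1 point a gene, thick bars at the medians and dotted lines at 2-fold. The medians run from -1.09 for insulin signalling and FOXO genes to 1.41 for inflammatory genes under phenformin, and the red median lies left of the blue one for the ATF4 list and right of it for the mitosis list.

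The genes with the largest differences under phenformin were only in part those of 2DG alone. ANKRD1, a nuclear ankyrin-repeat protein gene, had the highest, 5.51, with levels of 5.44 in control, 5.62 with 2DG, 4.76 with phenformin and 10.27 with both. MMP3 (stromelysin 1) was at 6.05, 7.93, 5.23 and 10.42, and SNAI2, a repressor of epithelial genes, at 7.57, 7.79, 7.55 and 11.49. SIK1, a salt-inducible kinase (3.83), NOCT, a phosphatase of nicotinamide cofactors (3.81), and the nucleotidase gene ENTPD7 (4.36) followed. CREB5 read 4.91 at 1 probe set and -2.17 at the other.

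At the lower end, after SLC38A2, TUBA1A (an alpha tubulin) was at 8.73, 9.003, 11.09 and 6.70. CDKN1B (p27), a cyclin-dependent kinase inhibitor, was at 7.56, 7.57, 8.64 and 4.43, and HEXIM1, an inhibitor of P-TEFb, at 9.04, 8.56, 9.12 and 5.01. ANKRA2 differed by -4.04. GBP3, FBXO3, SIX4 and CKMT2-AS1 were not above background with both agents, with differences of -3.86, -3.79, -3.56 and -3.10 or lower, and a second FBXO3 probe set gave -1.05.

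**Figure D4:**
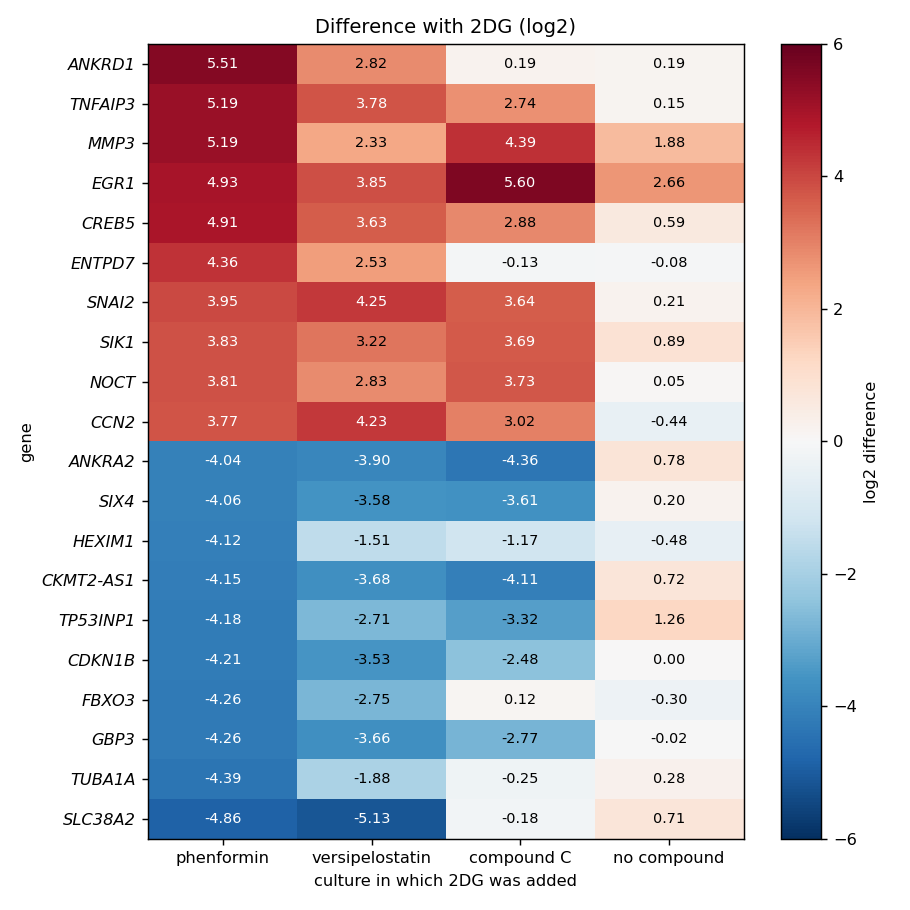
Log2 difference made by 2DG (colour and number) for the 10 highest and 10 lowest genes under phenformin, in cultures with phenformin, versipelostatin, compound C or no compound, as read and with no bound applied. Under versipelostatin all 20 had the sign seen under phenformin, while ANKRD1, ENTPD7, TUBA1A, FBXO3 and SLC38A2 lay between -0.25 and 0.19 under compound C.

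Set beside the other 2 compounds, 607 of the 1258 higher probe sets (48.3%) were also at least 2-fold higher with 2DG under versipelostatin, which is 61.3% of the 991 there (6.39% of all), and 540 (42.9%) under compound C, which is 31.1% of 1738 (11.2% of all). Of the 2746 lower, 1528 (55.6%) were shared with versipelostatin, 63.6% of its 2404 (15.5% of all), and 1549 (56.4%) with compound C, 40.6% of its 3813 (24.6% of all). In none of the other 3 settings did 402 of the higher (32.0%) and 579 of the lower (21.1%) pass 2-fold. Among the 36 ATF4 and CHOP targets more were at least 2-fold lower than higher under each compound. Under versipelostatin 23 were lower and 3 higher (median -1.64), where 16.6% of all genes were lower. Under compound C these counts were 12 and 5 (median -0.65), where 26.4% of all genes were lower. Of the 20 immediate early genes 10 were higher and 3 lower under versipelostatin, and 11 and 0 under compound C. The ER chaperones read differently from compound to compound. Under versipelostatin 1 of the 24 was at least 2-fold higher, where 3.74% of all genes were, and HSPA5 differed by 0.78, against 8 and 2.13 under phenformin. Under compound C 10 were higher, where 8.67% of all genes were, and HSPA5 differed by 2.83. At this brightest probe set HSPA5 went from 10.58 to 13.42 under compound C and from 11.28 to 13.41 under phenformin. The larger difference under compound C thus came from a lower start. DDIT3 differed by 2.27 under phenformin, -0.58 under versipelostatin and -1.65 under compound C, and CXCL8 by 3.64, 0.95 and -0.39.

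Probe sets of the same gene were less alike under phenformin. Over 3492 genes with several probe sets the pooled SD between them was 0.80 under phenformin and 0.32 without a compound, and 129 genes had a probe set at least 2-fold higher and another at least 2-fold lower, against 1 without a compound. The pooled SD was 0.78 under versipelostatin and 0.80 under compound C. Differences over all probe sets were also wider under phenformin, with an SD of 1.004 against 0.52 without a compound. The part of that wider spread in these figures was not tested. For TNFRSF10B, the TRAIL receptor DR5, the brightest probe set went from 10.13 to 8.45 and the other 2 from 6.36 to 8.08 and from 6.30 to 8.15. For MCL1, a short-lived survival protein gene, the brightest went from 11.46 to 10.25 and the next from 9.28 to 10.38. Of 827 genes with several probe sets and a brightest one past 2-fold, 580 had all probe sets on the same side of 0.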

How the data were processed

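Total RNA (100 ng) from 8 HT1080 cultures was hybridised to Affymetrix human expression arrays, 1 a condition. The deposited log2 values of 54675 probe sets had been made by the authors with RMA, per the labels, and the software that ran it is not given in the sources used here. RMA equalises the arrays, which can hide a change shared by most transcripts. The 62 array control probe sets were left out, and the log2 6 limit on at least 1 of the 8 arrays left 15503. Of these 13771 had 1 gene symbol in the platform annotation, 769 several and 963 none. A gene was read from the probe set with the highest mean over the 8 arrays, and levels were never compared between probe sets. The median of all probe sets on an array served as its background level, and a difference from a value below it is given as a bound. Differences were taken with Python 3.11.15, numpy 2.4.6 and pandas 2.3.3, correlations with scipy 1.17.1 and plots with matplotlib 3.10.9, and the counting was tested on simulated data. With 1 array a condition there is no SD, SE, test or p-value, and the number of arrays limits the precision. Genes named were the 10 highest and 10 lowest under phenformin, the 10 highest and 10 lowest by that difference minus the one without a compound, those the study names, and up to 4 members with the largest difference of each of 34 gene lists. Other list members given were chosen after their values were seen. The members, the lists and the thresholds were chosen with earlier results of these data known. Promoters came from RefSeq (GRCh38.p14). Alternatives were other fold thresholds and expression limits, 4 other scalings, probe sets without the _x_at and _s_at types, and other ways of reading a gene.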

Additional observations from a re-analysis of the deposited data

Results flagged for a closer look

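For 95 of 8429 genes 2DG gave a difference of at least 2-fold in one direction without a compound and at least 2-fold in the other under phenformin, 77 of them higher alone and lower under phenformin. Without a compound 258 genes were at least 2-fold higher, and 18.9% of all genes were as much lower under phenformin. In the other direction 160 genes were lower without a compound, and 5.59% of all genes were higher under phenformin. Of the 95, those given here are the 15 among the genes named by rule and the 8 further ones of the ATF4 and CHOP list, which holds 11 in all. The difference between the 2 settings was not tested, since each rests on 1 array a condition. It is written as the log2 difference under phenformin minus that without a compound.

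On the ATF4 and CHOP list it was -6.12 for INHBE, -4.91 for DDIT4, -4.29 for SLC7A11, -4.12 for ASNS, -3.83 for PCK2 and -3.17 for TRIB3. It was -3.64 for the chromatin-associated stress gene NUPR1, -3.29 for STC2 (stanniocalcin 2), -3.15 for CBS, -2.54 for the lipoprotein receptor gene VLDLR and -2.22 for CTH. A second STC2 probe set differed by 0.20 under phenformin, and the highest of the SLC7A11 probe sets by 0.25. The tryptophanyl-tRNA synthetase gene WARS1 stood at -2.70. TP53INP1, a p53-induced autophagy gene, stood at -5.44 as read, with a value under phenformin and 2DG that is not above background. TSC22D3 (GILZ), a glucocorticoid and FOXO target, stood at -4.14, with levels of 5.45 in control and 9.84 with phenformin alone.

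WIPI1, an autophagy gene that binds PI3P, stood at -4.51, and NPC1, the lysosomal cholesterol transporter, at -2.56, with another NPC1 probe set at 0.50 under phenformin. The glucose transporter gene SLC2A3 stood at -3.44, the ERK phosphatase gene DUSP4 at -3.24 and the collagen gene COL6A3 at -3.82. LURAP1L stood at -4.79. C1RL, a complement-related protease gene, and SLFN5, an interferon-inducible gene, stood at -4.78 and -4.68 as read, both not above background with 2DG and phenformin.

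ND6, the complex I subunit coded on the light strand of mitochondrial DNA, went the other way, at 3.86. Its levels were 9.16 in control, 6.32 with 2DG, 5.57 with phenformin and 6.59 with both, so each agent alone read lower than control. A probe set for ND6 can also take up signal from other light-strand RNA, and this was not tested.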

How the results depend on the processing

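Of 2095 values recomputed under an alternative, 1806 stayed within a tolerance of 0.80 for log2 values, a ratio of 1.5 for counts and 0.1 for the correlation, 274 moved by more, and 15 that were past 2-fold changed sign. Centring and scaling on the spiked controls shift every difference by 0.21, -0.39 or -0.43. Under them no gene value or list median could leave the tolerance, so those entries among the 1806 are no check. The tolerance is also wide: the ATF4 list median stayed within it at -0.95 and at -0.32. Values near 0 could change sign within the tolerance, as the DNA replication and mitosis medians did. The causes were not tested. The counts below are, in order, probe sets higher and lower with 2DG under phenformin, those higher in both settings and lower in both, and those whose difference exceeded or lay below the one without a compound by 2-fold. At 1.5-fold they were 2389, 4643, 334, 388, 3042 and 5190, at 3-fold 562, 1224, 24, 6, 675 and 1629, and with 8429 genes as the unit 471, 1594, 36, 26, 653 and 1952, against 1258, 2746, 83, 60, 1625 and 3284 of 15503. The first 4 were 727, 4485, 38 and 311 with arrays scaled on poly-A controls, and 676, 4725, 45 and 215 on hybridization controls. With no expression limit (54613 probe sets) those lower in both were 94 and the last pair 2762 and 4985. Without _x_at and _s_at probe sets, which leaves 8394 and so lowers every count, 668 were higher, 41 higher in both, and the last pair 908 and 2114.

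A next brightest probe set exists only for genes with several, so a list median read from it can rest on fewer members. The inflammatory median was 0.23 with no limit, 0.36 without _x_at and _s_at probe sets and 2.56 with the next brightest probe set. That choice gave 1.79 for immediate early genes, 0.86 for p53 targets (0.60 with the median over probe sets) and 0.013 for insulin and FOXO genes. It turned the sign of CREB5 (-2.17), SPCS3 (0.71), SAR1A (-1.49, also without _x_at and _s_at probe sets), SLC2A3 (1.52), EGLN1 (0.39), TNFRSF10B (1.85), MCL1 (1.10), MAFG (-0.20) and NPC1 (0.50), and the median over probe sets that of VEGFA (0.061), EGLN1 (0.13), TNFRSF10B (1.73) and MCL1 (0.057). The correlation with 2DG alone ran from -0.05 to 0.02. No paired analysis was possible because each condition has 1 array. No array could be left out for the same reason.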

Other observations

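Groups around the secretory pathway that were not described above lay near 0 in the main with 2DG under phenformin. Of 29 COPI and COPII vesicle genes 1 was at least 2-fold higher and 2 lower (median -0.19, and 0.42 without a compound). KDELR3, a retrieval receptor for ER proteins, was at 6.88 in control, 7.74 with 2DG, 7.89 with phenformin and 5.83 with both. Of 33 genes of N-glycosylation and hexosamine synthesis 2 were higher and 3 lower. MOGS, the first glucosidase of glycan trimming, was at 6.93, 7.58, 6.72 and 4.60, and UAP1, which makes UDP-GlcNAc, at 11.11, 10.18, 10.44 and 11.97. TXNIP, a glucose-sensing arrestin relative, was at 5.32, 8.79, 5.05 and 7.07, higher with 2DG in both settings.

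BMP and SMAD pathway genes had 3 of 10 members higher and 2 lower. ID2, a helix-loop-helix inhibitor, was at 4.66, 4.47, 4.37 and 7.55, SMAD7, the inhibitory SMAD, at 5.36, 6.79, 6.25 and 8.59, and the receptor gene BMPR2 at 5.90, 6.32, 5.84 and 4.14. SMAD1 and SMAD5 differed by -0.63 and -1.48 under phenformin, and SMAD5 probe sets ranged from -1.48 to 0.25. Of 14 autophagy and lysosome genes 2 were higher, MAP1LC3B (1.86) and ATG5 (1.30, with another probe set at -2.12), and 2 lower, WIPI1 (-2.19) and NPC1 (-1.04).

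With genes split into 4 equal bins by the length of their span on the genome, the share at least 2-fold lower under phenformin was 15.9% in the shortest bin, 17.9% and 20.0% in the next 2 and 21.8% in the longest, and the share higher was 7.31%, 5.89%, 4.70% and 4.41%. The shares lower were 9.44%, 14.8%, 18.1% and 24.3% under versipelostatin, 22.4%, 26.7%, 26.8% and 29.6% under compound C, and 2.33%, 1.99%, 2.14% and 1.14% without a compound. The median level on the phenformin array was 7.85 in the shortest and 7.38 in the longest bin, and its part in these shares was not tested.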
